A study of Mus musculus with 6 samples.

Results

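The mouse liver carboxylesterases are described here through 10 genes, *Ces1b*, *Ces1c*, *Ces1d*, *Ces1e*, *Ces1f*, *Ces1g*, *Ces2a*, *Ces2c*, *Ces3a* and *Ces3b*, which were chosen by symbol from the 16123 genes of the expression table. All 10 were found in it. RNAseq was performed on poly-A RNA of livers of male mice after 4 weeks of a purified chow diet and 16 h of fasting. The study describes the mice fed this diet as 2 months old and gives no separate age at sampling. The WT group consisted of 3 pools of C57BL/6Rj mice (pools 1, 2 and 5). The KO group consisted of 3 pools of homozygous *Txndc5*-deficient mice of the line C57BL/6JRj-Txndc5<em2Mdnp>/Ciba (pools 2, 3 and 4), in which the third exon of *Txndc5* was deleted in the germline, so that every tissue lacks it. Each pool held 3 mice. The KO line descends from a single male founder, and per the study's methods the males of both genotypes came from crosses of heterozygous parents. The question was whether loss of TXNDC5, a protein disulfide isomerase of the endoplasmic reticulum (ER), goes with other levels of the transcripts of these enzymes.

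Carboxylesterases are serine hydrolases that cleave ester, amide and thioester bonds. In the liver they hydrolyse ester drugs and also lipid esters, and some of them supply fatty acids from stored triglyceride for the assembly of very low density lipoprotein (VLDL). Most members reside in the ER lumen, where a short C-terminal retrieval signal is recognised by KDEL receptors, whereas mouse CES1C is secreted and is the main carboxylesterase of mouse plasma.

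The ends of the coding sequences are shown because the retrieval signal lies there. The following lines give the last 15 coding bases before the stop codon of each gene on its coding strand, 5′ to 3′, from the longest coding transcript of GENCODE M21 on GRCm38. The last 12 bases, which are the last codons of the protein, are in capitals.
Ces1b: cacAGAGAACACAAA
Ces1c: cacACAGAACACAAA
Ces1d: gaaCATGTTGAGCTC
Ces1e: gaaCACACTGAGCTG
Ces1f: tacCACAATGAGCTG
Ces1g: gaaCATGTTGAACTG
Ces2a: aagCATGCAGAGCTG
Ces2c: aagCACAGGGAGCTT
Ces3a: gttCCAGAGGAGCTC
Ces3b: gttCCAGAGGAGCTC
*Ces3a* and *Ces3b* had identical ends. *Ces1b* and *Ces1c* ended in CACAAA, and no other member did. The annotation in the deposited table placed 5 members in the ER lumen, namely *Ces1b*, *Ces1c*, *Ces1f*, *Ces3a* and *Ces3b*. It also placed 2 of these 5, *Ces1b* and *Ces1c*, in the extracellular space.

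The region upstream of *Ces1b* and *Ces1c* is shown because this pair shared most of its sequence there while its transcript levels were far apart. The 250 bases before the annotated start, from RefSeq on GRCm38.p6 and written on the coding (minus) strand, lie at chr8:93079941-93080190 for *Ces1b* and at chr8:93131284-93131533 for *Ces1c*. The capitals mark TTATGTAA, a sequence of the kind that PAR bZIP factors and NFIL3 bind.
Ces1b: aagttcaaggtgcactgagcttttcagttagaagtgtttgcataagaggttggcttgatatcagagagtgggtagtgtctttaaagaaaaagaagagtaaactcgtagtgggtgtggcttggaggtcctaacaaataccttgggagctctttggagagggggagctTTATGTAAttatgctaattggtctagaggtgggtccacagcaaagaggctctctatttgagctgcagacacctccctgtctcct
Ces1c: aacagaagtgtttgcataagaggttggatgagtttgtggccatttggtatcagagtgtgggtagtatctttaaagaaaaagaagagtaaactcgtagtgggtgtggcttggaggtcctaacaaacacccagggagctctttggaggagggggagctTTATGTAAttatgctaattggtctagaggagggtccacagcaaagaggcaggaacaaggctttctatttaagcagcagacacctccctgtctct
The aligned bases of both windows were 90.6% identical over 235 bases. RefSeq gives *Ces1b* a second start, whose window (chr8:93080018-93080267) was 89.5% identical to that of *Ces1c* over 162 bases. The GENCODE span of *Ces1b* ends at 93080017, which matches this second start and not that of the window shown. Of the 10 members, 7 had an entry in the promoter table, which covers 250 bases before and 50 bases after each start (*Ces1d*, *Ces1f* and *Ces3a* had none). TTATGTAA or its reverse complement TTACATAA was found in *Ces1b*, *Ces1c*, *Ces1e* and *Ces1g*, and in 0.938% of all 32851 promoters of this length. In *Ces1b* its first base lay 84 bases before the start of the window shown but 7 before the second start. The distance was 94 bases in *Ces1c*, 81 in *Ces1e* and 232 in *Ces1g*. The promoters of *Ces2a*, *Ces2c* and *Ces3b* did not hold these letters. Of 8 other carboxylesterase genes with an entry, 1 (*Ces1a*) held them. GGGTGTGGC or its reverse complement GCCACACCC was found in *Ces1b* and *Ces1c* and in 1.35% of all promoters. TATAAA on either strand was found in *Ces1g* and *Ces3b* (13.6% of all promoters), and AGGTCA on either strand in *Ces2a* (16.3%). These matches describe letters only, and those of *Ces1b* and *Ces1c*, whose windows are nearly alike, are not separate finds.

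All 10 genes lie on chromosome 8 of GRCm38 in 2 clusters. The *Ces1* genes share the minus strand between 93020214 and 93535879 with *Ces5a*, a stretch of 516 kb with 9 carboxylesterase genes. The *Ces2* and *Ces3* genes share the plus strand between 104734003 and 105150109 with *Ces4a*, a stretch of 416 kb with 11. Of the coding bases that could be aligned, the *Ces1* members shared between 73.1% and 90.9% (15 pairs), *Ces2a* and *Ces2c* 83.0%, and *Ces3a* and *Ces3b* 95.3%. Between subfamilies the identity was 61.3% to 64.5%. Reads were 100 bases long, and sequence shared at that length limits how well reads can be given to a gene. Of the 100-base windows of the longest transcript, 16.0% in *Ces2c* occurred also in another transcript, chiefly that of the pseudogene *Ces2d-ps*, as did 10.7% in *Ces2a*, 9.09% in *Ces3a* and 7.68% in *Ces3b*. The share was 1.29% in *Ces1b*, 1.39% in *Ces1c* and 0 in the other *Ces1* members. By this share, *Ces2a*, *Ces2c*, *Ces3a* and *Ces3b* are more open to misplaced reads than the *Ces1* genes. The level of the gene that shares the sequence matters too. In *Ces1b*, 24 windows occurred also in *Ces1c*, whose mean value was 28662 against 699 for *Ces1b*. How far reads of *Ces1c* enter the value of *Ces1b* was not tested, so that value is uncertain as well.

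**Figure D1:**
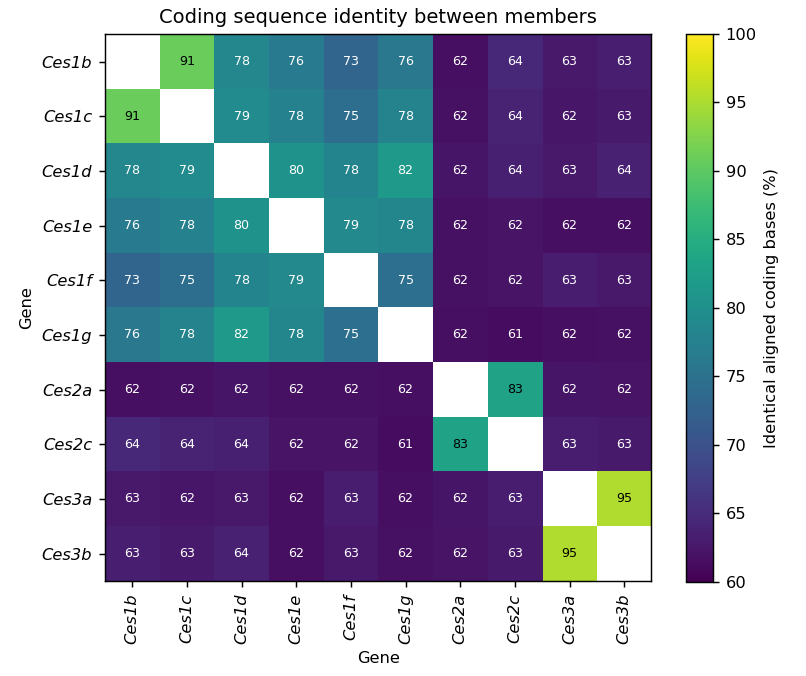
Identity of the coding sequences of the 10 carboxylesterase members, in percent of aligned bases, with genes on both axes and darker colours for lower identity. Blocks of higher identity mark the *Ces1* (73.1% to 90.9%), *Ces2* (83.0%) and *Ces3* (95.3%) subfamilies, and all pairs between subfamilies lie between 61.3% and 64.5%.

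For each gene the authors deposited 1 value per genotype, on the scale of reads divided by library size factors. The 3 libraries of a genotype are combined in it. In *Ces2d-ps*, a weakly expressed gene described below, the ratio of the 2 values was pulled toward 1. For the 10 members this could not be checked. These values alone allow no replicate check and no test for the 10 members, and the authors' own test of the 3 pools against 3 is not used here, so the comparisons between WT and KO below are descriptions. The libraries held 44.04 M to 46.05 M clean reads, of which 91.63% to 93.66% mapped and 62.19% to 65.69% mapped uniquely. Ribosomal RNA made up 0.26% to 0.69% of the reads. The value of *Txndc5* itself was 2697 in the WT group and 90.8 in the KO group, which fits the genotype labels. All 10 members exceeded the minimum mean value of 1 used for counts over all genes, which 14106 genes reached. About 947 reads lay behind the lowest value (*Ces2c* in WT) and about 122646 behind the highest (*Ces3a* in KO), estimated from the value and the mean size factor of the genotype.

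In both genotypes *Ces3a* and *Ces1c* dominated the carboxylesterase transcripts. Per kb of the longest transcript, the mean of the WT and KO values was 18537 for *Ces3a* and 15680 for *Ces1c*. *Ces1d* (4257), *Ces3b* (3245), *Ces2a* (2318), *Ces1f* (2213) and *Ces1e* (1047) formed a middle range of levels per kb. The lowest levels per kb were those of *Ces1g* (682), *Ces1b* (356) and *Ces2c* (173), so the range of levels was 107-fold. Within the pair with similar upstream sequence, *Ces1c* stood 44.1-fold above *Ces1b* per kb. Among all genes, ranked by level per kb of the deposited length, *Ces3a* was in place 92, *Ces1c* in place 114 and *Ces2c* in place 3368. Without values per library, it cannot be said which neighbours in this order differ beyond the spread between pools. Of the summed level per kb, *Ces3a* made up 37.4% in WT and 39.0% in KO, and *Ces1c* 33.3% and 31.3%. Together they accounted for 70.7% and 70.3%, and no member's share moved by more than 2.01 percentage points.

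**Figure D2:**
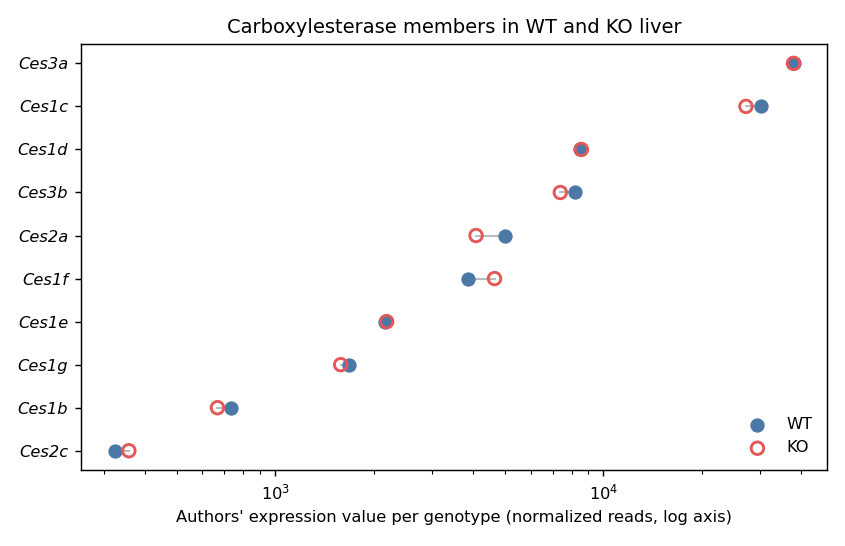
The authors' value per genotype for each of the 10 members on a log axis in normalized reads, with filled points for WT, open points for KO and genes ordered by their mean. Each point combines 3 libraries and has no error bar; the points of *Ces3a*, *Ces1d* and *Ces1e* coincide, while *Ces2a* lies lower and *Ces1f* higher in KO.

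The *Ces1* subfamily holds 6 members, 3 with a higher and 3 with a lower value in KO. *Ces1c*, the secreted plasma enzyme (NCBI Gene 13884, 93099015 to 93131283), reached 30156 in WT against 27169 in KO, which is a log2 ratio of KO over WT of −0.15. Ratios were computed on the value plus 1. *Ces1b* (NCBI Gene 382044, 93056728 to 93080017) had 732 in WT against 667 in KO (log2 ratio −0.13). This pair, which shares the coding end CACAAA and most of its upstream sequence, had nearly the same ratio at levels far apart. The pair also shares 100-base windows, so the ratios of both genes may not be independent, which was not tested.

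*Ces1d*, the ER triglyceride hydrolase that releases fatty acids from stored fat for VLDL (NCBI Gene 104158, 93166068 to 93197838), had 8503 in WT and 8561 in KO (log2 ratio 0.01). *Ces1e*, known as egasyn because it anchors β-glucuronidase in the ER (NCBI Gene 13897, 93201218 to 93229619), had 2155 and 2183 (log2 ratio 0.02). The values of both genes were nearly equal in the 2 genotypes. *Ces1f*, another ER hydrolase that acts on neutral lipids (NCBI Gene 234564, 93256236 to 93279747), had 3869 in WT and 4655 in KO. Its log2 ratio of 0.27 was the highest of the members, and its KO value was 120% of that in WT. *Ces1g*, whose loss in mice is known to cause fatty liver and hyperlipidaemia (NCBI Gene 12623, 93302369 to 93337308), had 1677 in WT and 1582 in KO (log2 ratio −0.08).

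In the *Ces2* subfamily, which prefers esters with a small acyl and a large alcohol group, the members differed in direction. *Ces2a* (NCBI Gene 102022, 104734003 to 104741634) had 4997 in WT and 4090 in KO. Its log2 ratio of −0.29 was the lowest of the members, and its KO value was 81.8% of that in WT. *Ces2c* (NCBI Gene 234671, 104847068 to 104854483), the least expressed member, had 324 in WT and 358 in KO (log2 ratio 0.14). Of the *Ces3* pair, *Ces3a* (NCBI Gene 382053, 105048601 to 105058413) had 37929 in WT and 37926 in KO (log2 ratio −0.00), and *Ces3b* (NCBI Gene 13909, 105083753 to 105093929) had 8209 and 7386 (log2 ratio −0.15). The summed values in KO were 95.2% of those in WT for the *Ces1* members, 83.6% for *Ces2*, 98.2% for *Ces3* and 96.0% for all 10.

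The order of levels per kb was the same in both genotypes except for 2 genes that exchanged places. In WT *Ces2a* (2549 per kb) stood above *Ces1f* (2009 per kb), and in KO *Ces1f* (2417 per kb) stood above *Ces2a* (2087 per kb). The exchange was also found with the coding length and with the deposited length. Counting error alone gave a 95% interval of 0.23 to 0.30 for the log2 ratio of *Ces1f*, of −0.32 to −0.25 for *Ces2a*, of 0.02 to 0.27 for *Ces2c* and of −0.01 to 0.01 for *Ces3a*. Such an interval covers no difference between pools of mice, and reads without molecular identifiers are not independent molecules. It therefore gives no test of the genotype.

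None of the 10 members passed a 1.5-fold difference in either direction, against 6.37% of the 14106 genes past the minimum (1.45% higher and 4.93% lower in KO). Among the 3860 genes expressed at least as highly as *Ces2c*, the share was 2.15% (0.933% higher and 1.22% lower). At 1.2-fold, a threshold added after the values were seen, *Ces1f* was above it and *Ces2a* below it in KO, 2 of 10 members against 32.2% of all genes tested (11.6% higher and 20.6% lower) and 21.0% of the genes as high as *Ces2c* (9.51% higher and 11.5% lower). With the ratios centred on the median of all genes tested, *Ces2a* had a log2 ratio of −0.24 and no longer passed 1.2-fold. The median log2 ratio was −0.04 over the members, −0.05 over all genes tested and −0.03 over the genes as high. The median size of the log2 ratio without its sign was 0.139 in the members and 0.138 in the genes as high. The members' ratios from −0.29 to 0.27 fell within the percentiles 5 and 95 of the genes as high, which were −0.37 and 0.36.

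**Figure D3:**
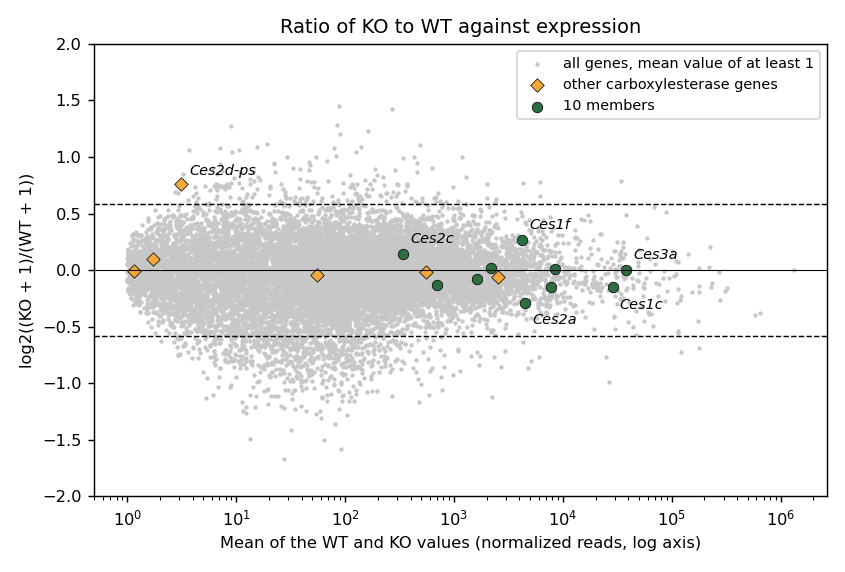
The log2 ratio of KO over WT (value plus 1) against the mean value in normalized reads on a log axis, with grey points for genes averaging at least 1, green circles for the 10 members and orange diamonds for other carboxylesterase genes. The dashed lines mark 1.5-fold, and 4 genes beyond −2 or 2, *Txndc5* among them, are not drawn; all 10 members lie between the lines, from −0.29 to 0.27.

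Of 10 further carboxylesterase genes, 7 were found in the table. *Ces1h*, *Ces2f* and *Ces5a* were absent from it, so no levels are given for them. *Ces2e* had 2606 in WT and 2499 in KO (log2 ratio −0.06), and *Ces2g* had 558 and 552 (log2 ratio −0.02). The other genes were weakly expressed, and for these the whole reads behind each library were worked out, because the mean value of a gene is a sum of whole reads divided by the size factors. Which pool each of these libraries is remains unknown, so they are named by genotype and size factor, which was 1.31, 1.04 and 0.886 in KO and 1.22, 0.879 and 0.818 in WT. A two-sided exact permutation test cannot go below p = 0.1 with 3 libraries per genotype.

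*Ces4a* had 61, 42 and 68 reads in the KO libraries and 55, 18 and 86 in the WT libraries, in the order of the size factors above. The WT libraries spread from 20.5 to 105 normalized reads and enclosed the range of the KO libraries. The means were 54.6 ± 19.4 normalized reads in KO and 56.8 ± 43.6 in WT (SD, n = 3 pools), and the mean log2 values differed by 0.18 (KO minus WT), with p = 0.9 in the exact permutation test. The log2 of the deposited values gave −0.04, so these summaries of a gene with overlapping groups differ in sign.

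*Ces2d-ps*, a pseudogene next to *Ces2c*, had 8, 13 and 0 reads in the KO libraries and 0, 0 and 0 in the WT libraries. The mean of the KO libraries was at least 5.87-fold higher than that of WT with the WT group set to a floor of 3 reads in all, and p was 0.4 in the exact permutation test. A KO library without reads overlapped with WT. The deposited values of this gene were 4.17 in KO and 2.04 in WT, which shows the pull of the ratios toward 1 at low counts. Of its 100-base windows, 57.0% occurred in other transcripts, those of *Gm8798* and *Ces2c* most often, so such reads cannot be told apart from theirs.

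*Ces2h* had 4, 0 and 3 reads in KO and 2, 2 and 0 in WT. *Ces2b* had 3, 1 and 0 reads in KO and 0, 0 and 3 in WT. *Ces1a* had 0, 1 and 1 reads in KO and 3, 1 and 0 in WT. The genotypes overlapped in all 3 genes, which were at the limit of detection at this depth, and after Benjamini-Hochberg adjustment over the 5 recovered genes every exact permutation p was 1.

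**Figure D4:**
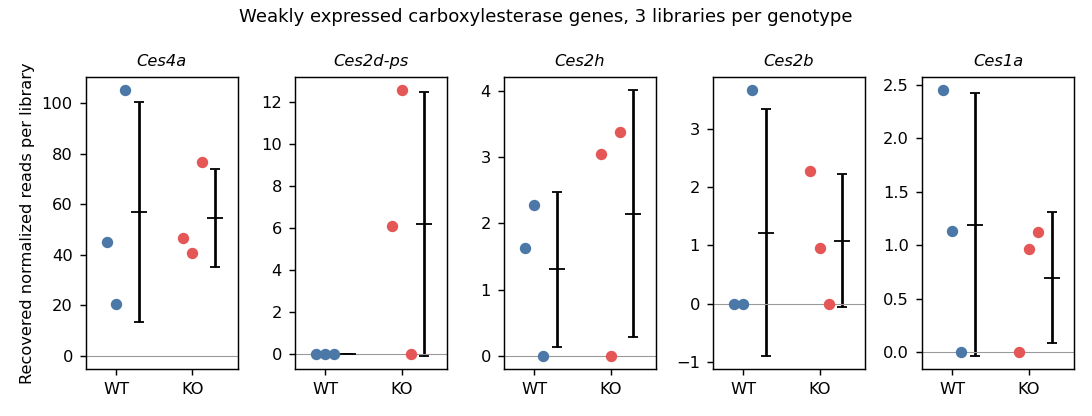
Recovered normalized reads per library of 5 weakly expressed carboxylesterase genes, each on its own linear axis, with 1 point per library (WT blue, KO red) and the mean with SD of 3 libraries as a black bar. The genotypes overlap in each gene, and *Ces2d-ps* has no reads in the WT libraries and in 1 KO library.

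Genes around the clusters gave the range of ratios along the neighbouring stretches of chromosome 8. The 10 nearest listed genes outside the *Ces1* cluster had log2 ratios from −0.19 to 0.38, and the 10 outside the *Ces2* and *Ces3* cluster from −0.52 to 0.38. The ratios of the members were within both ranges except that of *Ces2a*, which was below the first but within the second, that of its own cluster.

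Other enzymes that cleave esters and neutral lipids were examined as a list of 25 genes, all past the minimum of 1. Of these, 0 were above and 2 below the 1.5-fold threshold in KO, against 1.45% above and 4.93% below over all genes tested. The median log2 ratio of the list was 0.03. *Bche*, which encodes the plasma esterase butyrylcholinesterase, had 541 in WT and 296 in KO (log2 ratio −0.87). *Pnpla8*, a mitochondrial and peroxisomal phospholipase, had 568 and 369 (log2 ratio −0.62). At the upper end were the hydrolase *Abhd2* (log2 ratio 0.54) and the lipase *Ddhd2* (log2 ratio 0.45).

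Of the 11 genes of VLDL assembly and secretion, the route that carboxylesterases supply with fatty acids, 0 passed the threshold in either direction (median log2 ratio −0.10). *Apob*, the structural protein of VLDL, had 35805 in WT and 24961 in KO (log2 ratio −0.52), and *Tm6sf2*, needed for lipidation of VLDL, had a log2 ratio of −0.24. *Mttp*, the transfer protein that loads lipid onto ApoB (log2 ratio 0.33), and *Dgat2*, an enzyme of triglyceride synthesis (log2 ratio 0.31), had the highest ratios. For the retrieval of ER proteins, *Kdelr1* had a log2 ratio of 0.07 and *Kdelr2* of −0.08, and 0 of 3 KDEL receptor genes passed the threshold.

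Of 15 transcription factors known for carboxylesterase genes, 0 passed the threshold (median log2 ratio 0.01). The lowest ratio was that of *Nr3c1*, the glucocorticoid receptor (−0.48), and the highest were those of *Ppara*, the fatty acid sensor of the fasted liver (0.48), and *Srebf1*, a factor of lipid synthesis (0.41). Of 21 target genes of the xenobiotic receptors CAR and PXR and of NRF2 past the minimum of 1, 0 were above and 2 below the threshold. The median log2 ratio of this list was 0.02. Over all genes tested, 1.45% were above and 4.93% below the threshold. The 2 listed genes below it were *Sult1d1*, a sulfotransferase (275 in WT and 151 in KO, log2 ratio −0.86), and *Gsta2*, a glutathione transferase (74.9 and 45.1, log2 ratio −0.72). *Gclc*, an enzyme of glutathione synthesis (log2 ratio 0.40), and *Ugt1a1*, which conjugates bilirubin (log2 ratio 0.34), had the highest ratios.

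PAR bZIP factors and NFIL3 bind sequences of the kind marked in capitals upstream of *Ces1b* and *Ces1c*. They were added as a list after those promoters had been read, and their binding there was not measured. *Tef* had 1573 in WT and 2448 in KO (log2 ratio 0.64), and *Hlf* had 402 and 625 (log2 ratio 0.64). Both passed 1.5-fold. *Dbp* had 2899 and 3274 (log2 ratio 0.18) and *Nfil3*, which represses through sequences of this kind, 333 and 339 (log2 ratio 0.02). The 4 members with the sequence had log2 ratios of −0.15 (*Ces1c*), −0.13 (*Ces1b*), −0.08 (*Ces1g*) and 0.02 (*Ces1e*).

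**Figure D5:**
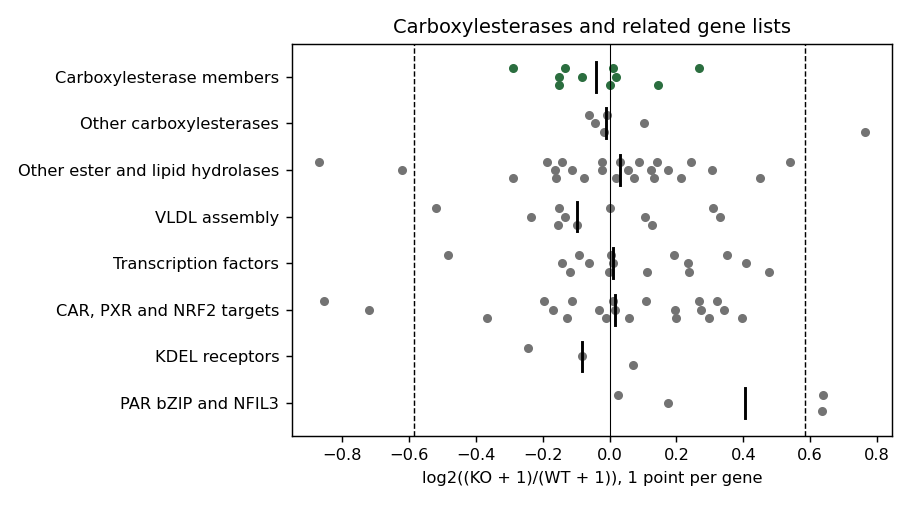
Log2 ratio of KO over WT (value plus 1) of each gene averaging at least 1 in the carboxylesterase members (green) and in 7 related lists (grey), with the median of each list as a black bar and 1.5-fold as dashed lines. The members lie between −0.29 and 0.27; *Bche*, *Pnpla8*, *Sult1d1* and *Gsta2* lie below the lower line and *Ces2d-ps*, *Tef* and *Hlf* above the upper line.

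The liver label was checked against cell type markers. The 8 hepatocyte markers had log2 ratios from −0.40 to 0.20 and none passed 1.5-fold, and that of *Alb* was 0.00. In bulk RNA, fewer cells of a type and less RNA per cell cannot be told apart. All 6 red cell markers were higher in KO, 3 of them past 1.5-fold, and their summed value was 118830 in WT and 180430 in KO. All 4 adipocyte markers found were higher in KO and past 1.5-fold, with *Adipoq* at 4.82 and 13.1 and *Plin1* at 4.60 and 9.71. Both of these averaged below 10, whereas *Car3* had 4827 in WT and 7624 in KO. Whether markers at such unlike levels report the same cells was not tested. The 6 sinusoidal endothelial markers were lower in KO, between −0.35 and −0.04. Of the 8 Kupffer cell markers 1 (*Marco*) was above 1.5-fold, of the 6 stellate cell markers 1 (*Col1a1*) was above and 1 (*Rgs5*) below it, and of the 5 cholangiocyte markers none was past it. Of the 5 enterocyte markers 2 were found, *Fabp2* at 813 in WT against 445 in KO and *Vil1* at 2.04 against 2.67. The pancreas acinar markers had values of 0.521 to 6.95. The part of other cell types in the ratios of the carboxylesterases was not tested.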

How the data were processed

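RNAseq libraries of 3 WT and 3 KO pools were matched to genotype through the sample labels. Per the submitters' processing notes, reads were handled with HISAT2, StringTie, Cufflinks, GATK, Bowtie2 and RSEM on build mm10. No versions or roles are given in the sources used here. As deposited by the authors, each of 16123 genes has an expression signal for WT and another for KO, on the scale of reads divided by size factors, and for each library the count of clean reads and the percent of reads mapped and of ribosomal RNA. The deposited table also holds the authors' log2 ratio and p-values of their comparison, which were not used.

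Log2 ratios were computed from both values with a pseudocount of 1, and genes averaging at least 1 were counted past 1.5-fold. Since the authors' test was set aside and the values used here are 1 per genotype, ratios are described by their size. Approximate reads are 3 times the value times the mean size factor of the genotype (0.974 in WT, 1.08 in KO), and counting intervals treat them as Poisson counts (95%). Reads per library were recovered for carboxylesterase genes with a mean value up to 60. What 1 read is worth in a library came from mean values that 20 or more genes had in common, and all sets of whole reads giving the mean within 2.5 times its rounding were enumerated. A single set was left for each of 5 genes. On simulated data the reads were recovered in 19 of 20 genes, with 0 wrong. They were compared as log2(normalized reads + 1) with two-sided exact permutation tests in SciPy 1.17.1. Coding sequences were aligned with Biopython 1.88. Gene models came from GENCODE M21 (GRCm38) and promoters from RefSeq (GRCm38.p6), the assembly also called mm10. Lengths are those of the longest transcript.

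The genes named are all carboxylesterases in the table, *Txndc5*, genes of each list past 1.5-fold, and the 2 highest and 2 lowest ratios of each list among genes with a mean of at least 10, except for 1 gene that is not reported here. Marker genes were named only where a count was small. The members, lists and tests were chosen with earlier results of these data known. The sources do not say whether pools were processed apart. How much of the spread between recovered libraries is technical cannot be told from these data.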

Additional observations from a re-analysis of the deposited data

How the results depend on the processing

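The ratios of the members moved by less than their counting error with a pseudocount of 0.1 or 10, and 0 of 10 members passed 1.5-fold with either pseudocount, with no filter or a stricter filter on low values, and at the planned thresholds below and above 1.5-fold. At 1.2-fold, added after the values were seen, 2 members passed, of which *Ces2a* fell short after centring (log2 ratio −0.24). Centring the ratios on the median of all genes moved the members' median from −0.04 to 0.0036 and the ratio of *Ces3a* from −0.00 to 0.05. The share of all genes past the fold was 6.37%, and it was 2.15% among genes as high as the lowest member and 32.2% at 1.2-fold. The order of levels per length was the same for all 10 members with the coding and the deposited length. Leaving out each recovered library in turn gave log2 differences of −0.75 to 0.14 for *Ces1a* (0.07 without the KO library of size factor 1.31), −0.25 to 0.90 for *Ces2b* (−0.21 without either of the WT libraries of size factor 1.22 and 0.879), 1.41 to 3.29 for *Ces2d-ps*, −0.17 to 1.04 for *Ces2h* (−0.03 without the KO library of size factor 0.886) and −0.38 to 0.77 for *Ces4a* (−0.09 without that KO library), so the sign of 4 of these 5 rested on single libraries. The cause was not tested. No paired analysis was possible because the WT and KO pools share only the number 2 and the table gives 1 value per genotype. The spread between pools was not measured for the members, and counting error adds to it most in *Ces2c*, the least expressed.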
